A study of Mus musculus with 6 samples.

Results

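The genes described are the 3 proline- and acidic-rich basic leucine zipper (PAR bZIP) transcription factors Hlf, Tef and Dbp, their antagonist Nfil3 and the cytochrome P450 reductase gene Por. They were picked by symbol, and all 5 were found among the 54532 genes of the count table and were among the 14758 genes tested. RNA was sequenced from the livers of 6 C57BL/6J/Rj mice, 3 per group. Control mice were Cre-negative littermates (LysM+/+) with floxed Cd44 (Cd44flox/flox), and knockout mice carried the same floxed alleles with LysMcre/+, which drives recombination in cells of the myeloid lineage. Both groups had free access to the liquid Lieber-DeCarli diet, with 6% of its volume as ethanol, for 10 days. On day 11 a gavage of ethanol at 5 g/kg was given in the early morning, and the mice were killed 9 hours later. No mice without ethanol, and no mice with Cre alone, were analysed here, so Cre itself and the altered lysozyme allele cannot be told apart from the loss of Cd44. The labels give 1 interval from gavage to death for all mice and no clock time for any single mouse.

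In the liver the daily clock drives the PAR bZIP genes through the activator CLOCK-BMAL1, which binds E-box sequences. HLF, TEF and DBP proteins accumulate rhythmically, bind as dimers to D-box sequences and activate transcription there. NFIL3, also called E4BP4, binds the same D-boxes but represses, and its own gene is driven through ROR response elements, where RORs activate and REV-ERBs repress. Mice without the 3 PAR bZIP factors are known for poor drug detoxification, and Por is among the genes linked to these factors in liver. Its product passes electrons from NADPH to all microsomal P450 enzymes.

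The elements named above were searched as exact letters on both strands in RefSeq promoter windows (GRCm38.p6) of 300 bases, from 250 before to 50 after each start. The E-box was CACGTG, the D-box TTATGTAA or TTACGTAA, and the ROR element TAGGTCA. All 5 genes had a window, and Tef had 2, for its 2 start sites. Both Tef windows held an E-box, as did 7.15% of all 32851 windows. The Nfil3 window held a ROR element, as did 2.61% of all windows. None of these letters was found in the Hlf, Dbp or Por windows. A D-box was found in 1.06% of all windows. Of the 8 E-box, 4 ROR-element and 14 PAR bZIP-linked genes described below that had a window, it was found in Per3 and in Alb, the albumin gene. The stretches are shown because they hold the letters of elements through which these factors and the clock are known to act. They run 5′ to 3′ on the strand of each gene, with the matching letters in capitals. Whether these stretches are known sites of such action was not examined. The capitals in Nfil3 and in the second Alb stretch are the reverse complement of the letters searched.
Tef, upstream start, chr15:81802535-81802562, E-box: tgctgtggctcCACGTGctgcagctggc
Tef, downstream start, chr15:81811265-81811292, E-box: acctggcccagCACGTGtctacatcgtt
Nfil3, chr13:52981034-52981062, ROR element: gcgctcggaacTGACCTActaacacacat
Per3, distal, chr4:151044852-151044881, D-box: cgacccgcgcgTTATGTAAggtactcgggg
Per3, proximal, chr4:151044805-151044834, D-box: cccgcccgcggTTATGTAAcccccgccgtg
Alb, distal, chr5:90460636-90460665, D-box: agattaagctcTTATGTAAaatttgctgtt
Alb, proximal, chr5:90460655-90460684, D-box: aatttgctgttTTACATAActttaatgaat
The E-boxes of Tef began at positions −127 and −138 from its upstream and downstream starts, and the ROR element of Nfil3 at −12. The pair of D-boxes began at −205 and −158 in Per3 and at −223 and −204 in Alb. These matches describe the letters in the windows, and binding was not measured.

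Library totals ran from 18428224 to 24042917 counts. Levels are given as CPM, a gene's counts relative to the library size after TMM scaling in edgeR, and log2 fold changes are the knockout against the control. A gene passed at a Benjamini-Hochberg adjusted p under 0.05 in the quasi-likelihood test of edgeR across all genes, and adjusted p-values below come from it unless another tool is named. In that test 25% of all genes passed, 11.9% higher and 13.1% lower in the knockout livers, and with scaling by library totals 904 genes were higher and 3698 lower instead of 1751 and 1933. The targeted gene Cd44 stood at 26.4 to 34.8 CPM in controls and at 1.92 to 3.01 CPM in knockouts, the direction of the genotype labels. Within the groups, control liver 1 and knockout liver 2 were farther from their group mates than these were from each other. The chi-square per degree of freedom was 53.6 and 41.1 for control liver 1 against 25.1 between the other controls, and 43.8 and 74.4 for knockout liver 2 against 24.5 between the other knockouts. Results that rest on these livers are therefore also given without them. The samples were whole liver, so a change in the number of cells of a type and a change in RNA per cell cannot be told apart.

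Hlf and Tef rose in the knockout livers, by 3.29-fold and 2-fold. Dbp was 2.64-fold higher but varied so much among the controls that it missed the threshold, and Nfil3 and Por did not pass either. Thus 2 of the 5 genes passed, both higher, where 11.9% of all genes tested were called higher. The groups did not overlap for 3 of the 5, namely Hlf, Tef and Dbp, where 43.8% of all genes tested did not overlap, 21.4% higher and 22.5% lower in the knockouts.

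Hlf (ENSMUSG00000003949, chromosome 11, 90336536 to 90390895 on the minus strand, GRCm38), the PAR bZIP factor first known from a fusion gene in leukemia, stood at 10.8, 19 and 23.7 CPM in control livers 1, 2 and 3. In knockout livers 1, 2 and 3 it stood at 56, 71.2 and 48.9 CPM. The lowest knockout was well above the highest control. The mean went from 17.8 ± 6.53 to 58.7 ± 11.4 CPM (SD, n = 3), a log2 fold change of 1.72 (SE 0.27, adjusted p = 0.00369). Its 95% interval ran from 1.1 to 2.34 on the log2 scale. The call held without any single liver, at log2 values of 1.47 to 2, and without both control liver 1 and knockout liver 2, at 1.3 (adjusted p = 0.00251).

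Tef (ENSMUSG00000022389, chromosome 15, 81802421 to 81826863 on the plus strand), named for its activity on the thyrotropin beta gene in the pituitary, was 71.1, 120.2 and 130 CPM in the controls. It was 200.7, 233.7 and 208.7 CPM in the knockouts. These were the tightest knockout values of the 5 genes (coefficient of variation 8.03%, against 29.5% in the controls), and the groups were again separate. The mean went from 107 ± 31.6 to 214 ± 17.2 CPM (SD, n = 3), a log2 fold change of 1 (SE 0.21, adjusted p = 0.0119). The call held without any single liver (0.79 to 1.19) and without both livers that stood apart (0.71, adjusted p = 0.00971). Tef shares 193 bases of exon with the antisense gene Gm17597, which had only 1 to 15 counts per liver where Tef had 1789 to 4857.

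Dbp (ENSMUSG00000059824, chromosome 7, 45705088 to 45710203 on the plus strand) is the member known for the widest daily swing in liver. It was 7.27, 38.6 and 48.1 CPM in control livers 1, 2 and 3, and 75.8, 67.6 and 104.1 CPM in the knockouts. The groups did not overlap, but control liver 1 lay far below the other controls, and the highest control was 6.62 times the lowest. The log2 fold change was 1.4 (SE 0.54, 95% interval 0.16 to 2.64, adjusted p = 0.0953), so Dbp did not pass with all 6 livers. Without control liver 1 the difference was smaller and the spread much smaller, and Dbp passed (log2 0.94, SE 0.21, adjusted p = 0.023, range over 15 alternatives 0.00554 to 0.199). It also passed without both control liver 1 and knockout liver 2 (log2 1.05, adjusted p = 0.00946). Dbp shares 539 bases (18% of its exon length) with Sphk2, a sphingosine kinase gene on the opposite strand. No source used here gives a strand setting for the counts, so reads in that stretch cannot be told apart and the level of Dbp is uncertain. Sphk2 itself rose, from 31.3, 27.2 and 35.3 CPM in the controls to 50.4, 56.3 and 49.6 CPM in the knockouts (log2 0.73, adjusted p = 0.00523).

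Nfil3 (ENSMUSG00000056749, chromosome 13, 52967209 to 52981073 on the minus strand), the repressor at D-boxes, was 49, 19.5 and 26 CPM in control livers 1, 2 and 3. It was 17.1, 24.8 and 19.4 CPM in the knockouts. Control liver 1, which had the lowest Dbp, had the highest Nfil3, and the other controls lay within or close to the range of the knockouts. The means were 31.5 ± 15.5 and 20.4 ± 3.98 CPM (SD, n = 3), a log2 difference of −0.63 (SE 0.31, 95% interval −1.34 to 0.09, adjusted p = 0.182). Without control liver 1 the log2 difference was −0.14 (adjusted p = 0.662). Nfil3 is also expressed by natural killer (NK) and myeloid cells. Of 8 shared myeloid markers 7 fell, where 13.1% of all genes tested fell. The summed level of the 8 was 363 to 436 CPM in controls and 114 to 235 CPM in knockouts. Of 6 markers of Kupffer cells, the macrophages of the liver, 5 fell. All 6 summed to 752 to 819 CPM in controls and 220 to 492 CPM in knockouts. The 9 NK markers summed to 4.17 to 4.73 CPM in controls and 3.37 to 4.34 CPM in knockouts, none was at 0 in all livers, and 0 of the 4 tested passed by edgeR (0 also at an unadjusted p under 0.05). The part of these cells in the Nfil3 values was not tested.

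Por (ENSMUSG00000005514, chromosome 5, 135670033 to 135735326 on the plus strand) was 590, 971 and 978 CPM in the controls and 876, 1414 and 688 CPM in the knockouts. The groups overlapped, with knockout liver 2 above every control and knockout liver 3 below 2 of the 3 controls. The log2 difference was 0.23 (SE 0.29, adjusted p = 0.603). Its 95% interval, from 0.74-fold to 1.86-fold, does not include a doubling. The sign depended on the livers and on the scaling. It was −0.11 without knockout liver 2, −0.315 without both livers that stood apart, and −0.042 with scaling by library totals.

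**Figure D1:**
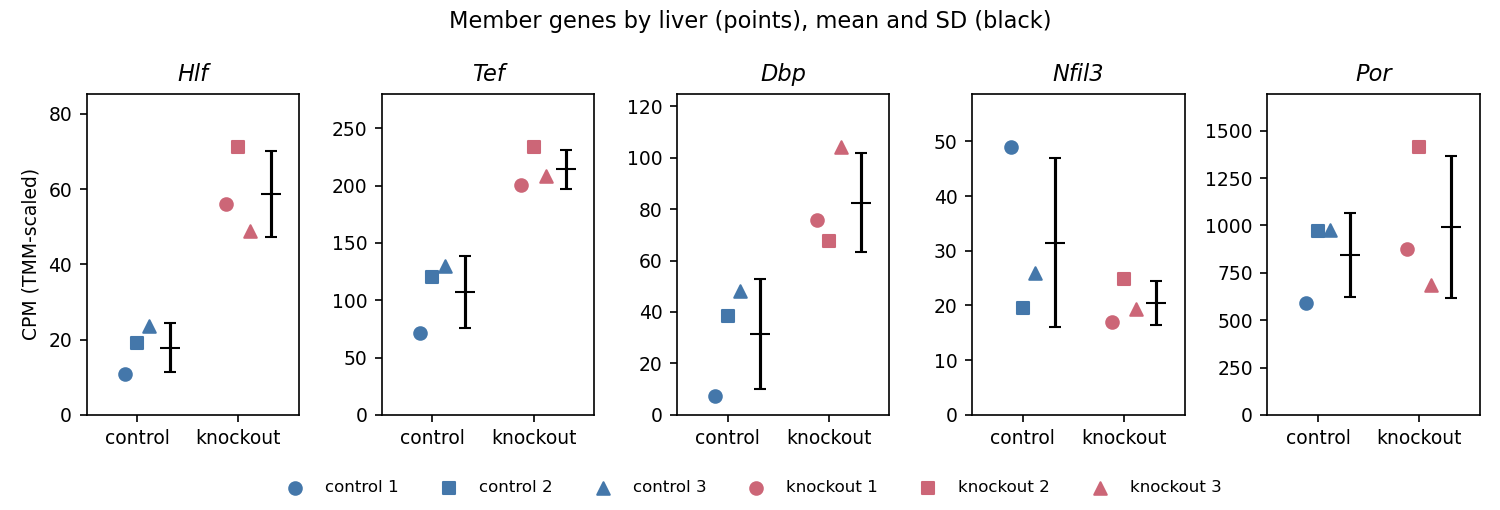
Level of each gene in each liver (points, CPM with TMM-scaled library sizes; axes start at 0 and differ between panels), with the mean and SD of each group in black (n = 3). Hlf, Tef and Dbp are higher in every knockout than in any control, control liver 1 (blue circle) is lowest for Dbp at 7.27 CPM and highest for Nfil3 at 49 CPM, and Por overlaps between groups.

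**Figure D2:**
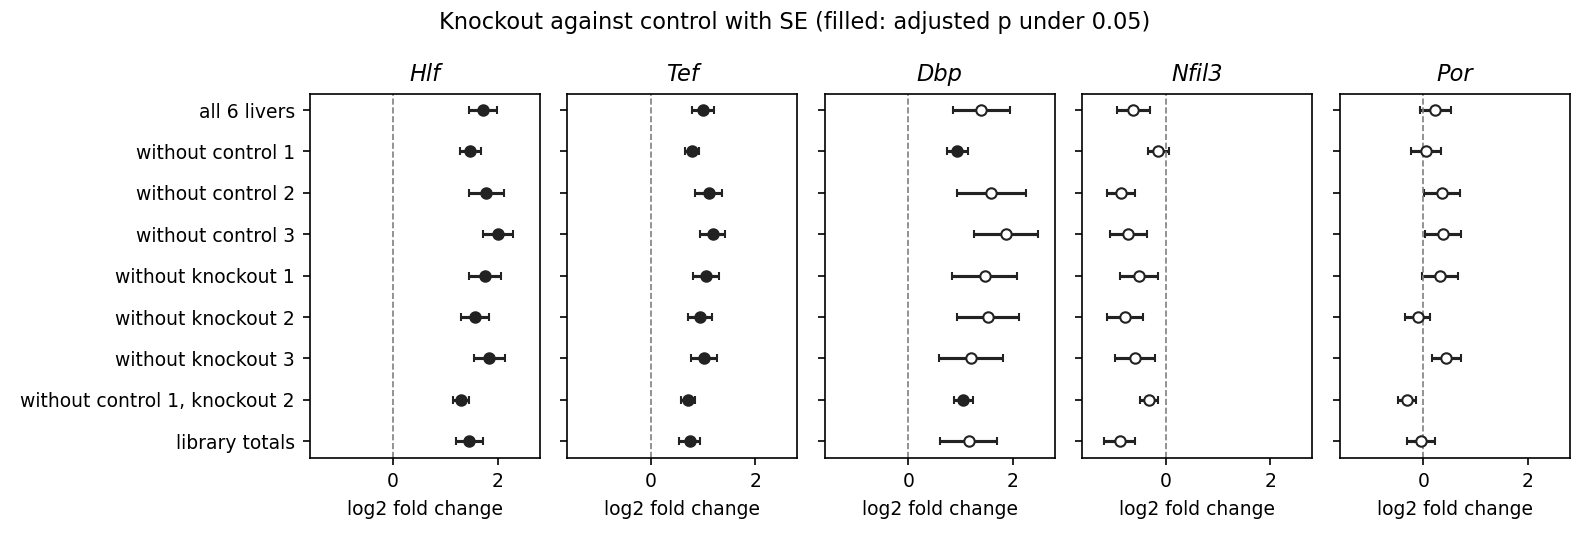
Log2 fold change of each gene, knockout against control, with its SE, for all livers, without each liver in turn, without 2 livers, and with scaling by library totals; filled points have an adjusted p under 0.05 in edgeR. Hlf and Tef are filled in every row, Dbp only without control liver 1 or without both livers that stood apart, and Nfil3 and Por in none.

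Hepatocytes make up most of the liver and express the PAR bZIP genes. Of 8 hepatocyte marker symbols 7 were matched and tested. Of these 3 rose (Ttr, Cps1 and Serpina1c) and 0 fell, where 11.9% of all genes tested rose and 13.1% fell. Apoa1 (log2 −0.13) and Fgb (0.025) did not pass, nor did Alb. The summed level was 69300 to 80800 CPM in controls and 91700 to 126000 CPM in knockouts, most of it Alb, and no marker was at 0. Hnf4a, the transcription factor that defines hepatocytes, was 603, 597 and 644 CPM in controls and 852, 864 and 579 CPM in knockouts, and did not pass (log2 0.32, adjusted p = 0.218). Without knockout liver 3 Hnf4a was called higher. The part of hepatocyte content in the PAR bZIP values was not tested. With library totals as the scale, Hlf stood at 1.46 (adjusted p = 0.00436) and Tef at 0.74 (adjusted p = 0.027).

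Levels between genes were compared as CPM per kb of summed exon length, with SDs over 3 livers. Por was by far the highest in every liver, at 210 ± 55.2 CPM per kb in controls and 247 ± 93.7 in knockouts. In the control means Nfil3 (15.5 ± 7.64), Tef (13.6 ± 4.02) and Dbp (10.5 ± 7.14) followed, and these 3 did not differ beyond their spread. Nfil3 was ahead of Tef and Dbp only in control liver 1 (24.2 CPM per kb, against 9.03 and 2.43). In control livers 2 and 3 the order was Tef, Dbp and Nfil3. By this length Hlf was the lowest member in every liver, at 2.67 ± 0.98 CPM per kb in controls and 8.79 ± 1.7 in knockouts. In the knockouts Dbp (27.6 ± 6.41) and Tef (27.2 ± 2.19) did not differ beyond their spread, and neither did Nfil3 (10.1 ± 1.96) and Hlf. The exon sum of Tef and Dbp is longer than their longest transcript, 7867 against 4403 bases and 2993 against 1837 bases. With the longest transcript as the length, Tef (24.3 CPM per kb) and Dbp (17.1) moved ahead of Nfil3 (15.5) in the control means. Hlf then lay above Nfil3 in knockout livers 1 (9.93 against 8.43) and 2 (12.6 against 12.3) and below it in knockout liver 3 (8.67 against 9.59).

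The activators summed to 13.1, 31 and 36.2 CPM per kb in control livers 1, 2 and 3 and to 59.2, 62.9 and 68.6 in the knockouts. Tef gave 45.7% to 69.1% of that sum in controls and 38.6% to 47.2% in knockouts. Dbp gave 18.6% in control liver 1 and 35.9% to 50.7% in the other livers, and Hlf gave 9.17% to 16.9% in all livers. The ratio of Nfil3 to the activator sum was 1.85, 0.31 and 0.355 in the controls and 0.142, 0.195 and 0.14 in the knockouts. Every knockout ratio lay below every control ratio, and control liver 1 was the only liver in which the repressor exceeded the activators together. With the longest transcript as the length the ratio in that liver was 1.1, and the other ratios ran from 0.085 to 0.214. The ratio is a description, since its genes were chosen with earlier results known.

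**Figure D3:**
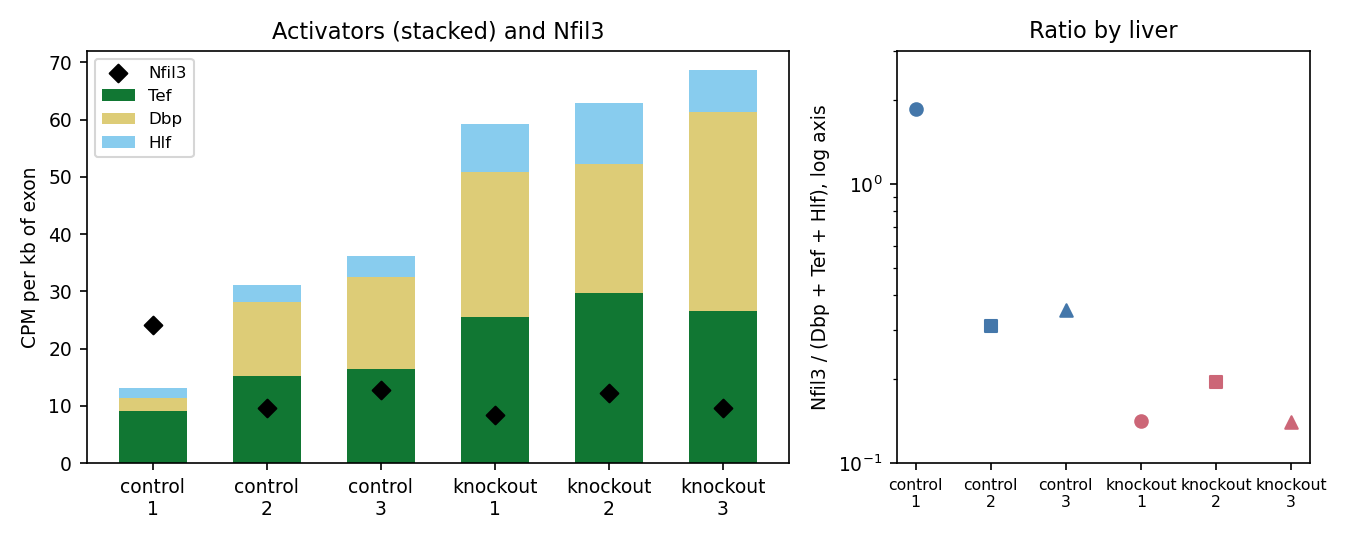
Left, Tef, Dbp and Hlf stacked and Nfil3 as diamonds, in CPM per kb of exon, for each liver. Right, the ratio of Nfil3 to the sum of the 3 activators on a log axis: it is 1.85 in control liver 1, 0.31 and 0.355 in the other controls and 0.14 to 0.195 in the knockouts.

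The 5 genes were compared across the 6 livers by Pearson's r of log2 CPM, first as they are and then after each group's mean was removed. These r values are descriptions over few livers that share their scaling and their group difference. Hlf and Tef were closest, at 0.99 and 0.95 after centring. Dbp went with Tef (0.93 and 0.93 centred) and less with Hlf (0.87 and 0.79). Nfil3 ran opposite to Dbp, at −0.89 and −0.86, with control liver 1 highest in Nfil3 (49 CPM) and lowest in Dbp (7.27 CPM). Among the knockouts, liver 2 had the highest Nfil3 and the lowest Dbp. From control liver 2 to control liver 3, however, both were higher, Nfil3 at 19.5 and 26 CPM and Dbp at 38.6 and 48.1 CPM. No r was computed without control liver 1, so whether the opposition rests on that liver was not tested. Por was at 0.56 with Hlf and at 0.88 after centring. Knockout liver 2 was the highest of its group for both genes, and control liver 1 the lowest.

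The 3 protein-coding genes closest to each member by r over the 6 livers were taken from 12115 genes with a mean of at least 1 CPM. For Hlf they were Adra1a, Arg1 and Ttc39c (r of 0.9971, 0.9964 and 0.9958), and 1187 genes had an r above 0.9. That number was 996 for Tef, 309 for Dbp, 70 for Nfil3 and 132 for Por. Arg1, the arginase of the urea cycle, went from 813, 1206 and 1424 CPM to 2176, 2652 and 2037 CPM (adjusted p = 0.0143). For Tef they were Gzf1, Tmem135 and Abcg5 (0.9996, 0.9971 and 0.9962). Abcg5, a sterol exporter, went from 22.7, 48.6 and 55.1 CPM to 100.5, 134.4 and 96.1 CPM (adjusted p = 0.0127). For Dbp they were Txlng, Pqlc2 and Mpped2 (0.9923, 0.9921 and 0.9889), of which none passed. For Nfil3 they were Nedd4l, Adamts10 and Clp1 (0.9988, 0.9964 and 0.9905), which were highest in control liver 1 as Nfil3 was and did not pass. Nedd4l, a ubiquitin ligase, stood at 102, 44.5 and 60.1 CPM in controls and at 40.3, 57.2 and 45.7 CPM in knockouts. For Por they were Cd320, H2-Q6 and Dyrk2 (0.9858, 0.9848 and 0.9831), and none passed. H2-Q6 has close copies, so its level is uncertain.

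Among 10 clock genes grouped, from background knowledge, as driven through E-boxes, 4 rose and 0 fell (median log2 0.57, against −0.01 over all genes tested), where 11.9% of all genes tested rose. The promoter windows do not follow this grouping: of the 8 genes with a window, CACGTG was found in 3, Per1, Ciart and Bhlhe41, and none of these passed. CACGTG was not found in the windows of Per3, Usp2 or Cry2, which rose, and it was found in those of Cry1, Nr1i3 and Acot4 of the other lists. The period gene Per3, whose promoter holds the pair of D-boxes shown above, was 6.43, 16.5 and 22.3 CPM in controls and 48.4, 53.6 and 39.3 CPM in knockouts (log2 fold change 1.65 with an SE of 0.37, adjusted p = 0.015). As with Hlf, control liver 1 was the lowest, and no knockout overlapped a control. Its paralog Per2 was 15.7, 22.4 and 20.9 CPM in controls and 40.2, 53.7 and 36.7 CPM in knockouts (log2 1.15, adjusted p = 0.00405). The deubiquitinase Usp2 (12.1 ± 5.99 to 25.7 ± 3.89 CPM, adjusted p = 0.0346) and the repressor Cry2 (37.1 ± 7.04 to 53.3 ± 3.95 CPM, adjusted p = 0.0381) also rose. When any 1 liver other than control liver 3 was left out, or both livers that stood apart, only Per2 and Per3 of this list passed. The other period gene, Per1, was 80.3, 73.9 and 88.2 CPM in controls and 78.3, 24.3 and 62.1 CPM in knockouts and did not pass (log2 −0.56, adjusted p = 0.278). Nr1d1, which encodes REV-ERB-alpha and is an E-box gene like Dbp, was 25.6, 69.3 and 77.5 CPM in controls and 52.5, 94 and 81.2 CPM in knockouts (log2 0.40, adjusted p = 0.476). Its low value in control liver 1 matched the low Dbp of that liver. Per1 and Nr1d1 are named after their values were seen.

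Of 4 clock genes grouped in the same way as driven through ROR elements, like Nfil3, 0 passed by edgeR (0 also at an unadjusted p under 0.05, and 0 by DESeq2 or limma-voom), with a median log2 of −0.28. The repressor Cry1 was 13, 10 and 6.65 CPM in controls and 7.67, 18.6 and 11.7 CPM in knockouts (log2 0.36, adjusted p = 0.48). Arntl, the gene of BMAL1 and the 1 gene of these 4 with TAGGTCA in its window, was 16, 6.58 and 6.39 CPM in controls and 3.26, 12.7 and 3.25 CPM in knockouts. Arntl was thus high in control liver 1 and knockout liver 2 and low in the other 4 livers. Over all livers Arntl did not pass (log2 −0.59, adjusted p = 0.486), and it fell without knockout liver 2 (log2 −1.57, adjusted p = 0.0377) and without both livers that stood apart (log2 −0.99, adjusted p = 0.0179). The highest Nfil3 of each group was found in the same livers, 49 CPM in control liver 1 and 24.8 CPM in knockout liver 2. The highest Dbp of each group was found in livers 3 of both groups. Of 8 clock kinases, ubiquitin ligase subunits and Rora, 2 fell and 0 rose (median log2 −0.14). Of all genes tested 13.1% fell, and 25% passed in either direction. They were the kinase Csnk1e (17.2 ± 1.12 to 11.4 ± 1 CPM, adjusted p = 0.0125) and Fbxw11 (69.1 ± 5.92 to 53.5 ± 3.56 CPM, adjusted p = 0.0464). Fbxw11 did not pass without any 1 of the 6 livers, and Csnk1e did not pass without control liver 2 (adjusted p = 0.0569).

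**Figure D4:**
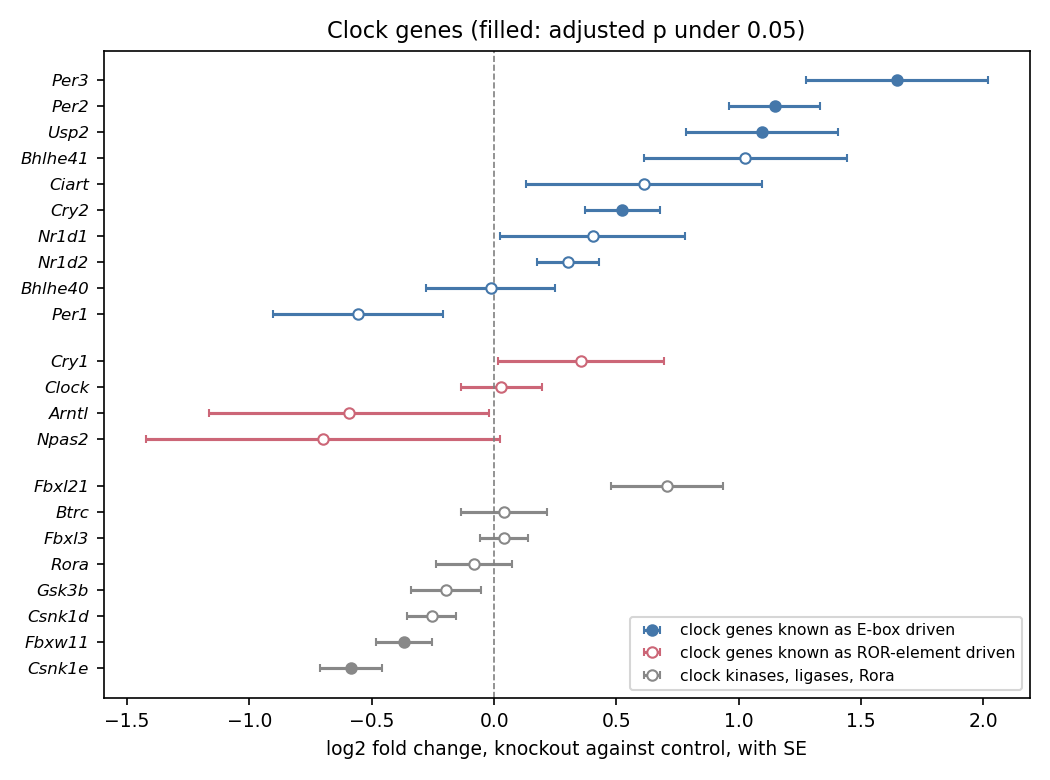
Log2 fold change, knockout against control, with SE for the clock genes known as driven through E-boxes (blue) or ROR elements (red) and the clock modifiers (grey); filled points passed. Per3 (1.65) and Per2 (1.15) lie farthest to the right among those that passed, and Csnk1e (−0.58) farthest to the left.

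In a list of 16 liver genes linked to the PAR bZIP factors, 10 rose and 1 fell (median log2 1.62, against −0.01 over all genes). Of all genes tested 11.9% rose and 13.1% fell. The list was chosen with earlier results of these data known, so its count is a description. Some of its genes are P450 genes or receptors and are counted again below. Nr1i3, the nuclear receptor CAR that induces drug-metabolising enzymes, was 11.6, 12.4 and 16.6 CPM in controls and 57.7, 71.7 and 52.4 CPM in knockouts (log2 fold change 2.16 with an SE of 0.18, adjusted p = 0.000414). The order of the livers within each group was the same as for Hlf. Nr1i3 shares 74.9% of its exon length with Tomm40l on the opposite strand, which stood at 7.19 to 8.7 CPM in controls and 10.7 to 19.2 CPM in knockouts, so its level is uncertain. The P450 genes Cyp2c37 (113 ± 27.1 to 988 ± 165 CPM, adjusted p = 0.000211) and Cyp2c54 (20 ± 8.04 to 201 ± 47.2 CPM, adjusted p = 0.000565) rose 8.73-fold and 10.1-fold. They belong to a cluster of similar genes, so the share of each copy is uncertain. Acot4, a peroxisomal acyl-CoA thioesterase, rose from 60.5 ± 15.6 to 165 ± 9.4 CPM (adjusted p = 0.00161), with 615 of its exon bases shared with an antisense gene. The 1 gene that fell was Acot2, its mitochondrial relative (138, 134 and 123 CPM in controls, 65.4, 56.1 and 41.1 CPM in knockouts, adjusted p = 0.00179). Cyp7a1, the rate-limiting enzyme of bile acid synthesis and an early known DBP target, was 7.19, 16.4 and 72.6 CPM in controls and 188, 212 and 245 CPM in knockouts (log2 2.75, adjusted p = 0.0242). The order of its controls was that of Dbp, with control liver 1 lowest and control liver 3 highest, but the spacing differed. The call of Cyp7a1 was lost when control liver 2 (adjusted p = 0.081) or knockout liver 1 or 3 (0.0526 and 0.0504) was left out. Alas1, which makes the heme precursor and is linked to the same factors, was 913, 290 and 705 CPM in controls and 755, 187 and 712 CPM in knockouts and did not pass (adjusted p = 0.814). Alb did not pass either (log2 0.55, adjusted p = 0.131), while DESeq2 called it (adjusted p = 0.00197). Acot2, Cyp7a1, Alas1 and Alb are named after their values were seen.

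While Por did not pass, some genes in a list of 10 electron partners and heme genes did. Of these 10, 4 rose and 0 fell (median log2 0.27), where 11.9% of all genes tested rose. Cyb5a, the microsomal cytochrome b5 that shares electrons with the P450 enzymes, was 518, 524 and 566 CPM in controls and 933, 992 and 826 CPM in knockouts (log2 fold change 0.77 with an SE of 0.13, adjusted p = 0.00478). Cyb5b, its mitochondrial relative, rose from 232 ± 31.1 to 359 ± 21.4 CPM (adjusted p = 0.0124), and Pgrmc1, a heme-binding P450 partner, from 800 ± 42.2 to 1116 ± 71.9 CPM (adjusted p = 0.0278). Hmox2, a heme oxygenase that uses Por, rose from 40.8 ± 0.81 to 52.2 ± 2.25 CPM (adjusted p = 0.0326), but shares 40.2% of its exon length with Cdip1, which stood at 73.8 to 106 CPM in controls and 128 to 162 CPM in knockouts. Without single livers 1 to 4 genes of this list passed, and with library totals only Cyb5a did. Pgrmc1 and Hmox2 passed under 7 and 6 of 15 alternatives. Of the P450 genes of families 1 to 4, most of which depend on Por, 76 were in the table and 56 were tested. Of these 32 rose and 4 fell (median log2 0.9), where 11.9% of all genes tested rose and 13.1% fell. Cyp2j5 rose from 122 ± 3.7 to 440 ± 19.7 CPM (adjusted p = 0.000178) and Cyp2b13 from 16.9 ± 4.08 to 288 ± 94.1 CPM (adjusted p = 0.000185). Cyp4a31 fell from 67.9 ± 12 to 8.48 ± 0.14 CPM (adjusted p = 9.07e-05) and Cyp4f16 from 16.8 ± 0.68 to 6.46 ± 0.26 CPM (adjusted p = 0.000565). Cyp2b13 and Cyp4a31 have close copies and are uncertain.

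Where 11.9% of all genes tested rose, 4 of 10 nuclear receptors and sensors of xenobiotics rose and 0 fell (median log2 0.32). Beside Nr1i3 these were Nr1h4, the bile acid receptor FXR (71.4 ± 14.1 to 171 ± 14.4 CPM, adjusted p = 0.00151), Ppara, the fatty acid receptor (62.5 ± 7.05 to 119 ± 29.7 CPM, adjusted p = 0.00861), and Nr1i2, the receptor PXR (77.1 ± 5.95 to 108 ± 18.4 CPM, adjusted p = 0.0372). Nr1i2 passed under 8 of 15 alternatives and lost its call with library totals, with the mouse-number block, without any 1 control liver, without knockout liver 1 and without both livers that stood apart (adjusted p up to 0.247). The C/EBP genes encode bZIP factors whose sites resemble the D-box. Of the 6 tested 2 rose and 2 fell (median log2 −0.26), where 11.9% of all genes tested rose and 13.1% fell. Cebpa, the form of the resting hepatocyte, was 199, 239 and 306 CPM in controls and 452, 584 and 543 CPM in knockouts (log2 fold change 1.09 with an SE of 0.18, adjusted p = 0.00469). Cebpe, known from granulocyte precursors, rose from 2.11 ± 0.41 to 8.58 ± 3.2 CPM (adjusted p = 0.00336). The acute-phase forms went the other way, Cebpd from 31.9 ± 10.5 to 9.44 ± 2.47 CPM (adjusted p = 0.0039) and Cebpb from 260 ± 75.7 to 137 ± 33.2 CPM (adjusted p = 0.0274). Cebpb did not pass without control liver 1 or 3 or knockout liver 2 or 3, nor without control liver 1 and knockout liver 2 together (log2 −0.58, adjusted p = 0.122). Cebpb and Cebpd share 20.7% and 15% of their exon length with genes on the opposite strand.

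**Figure D5:**
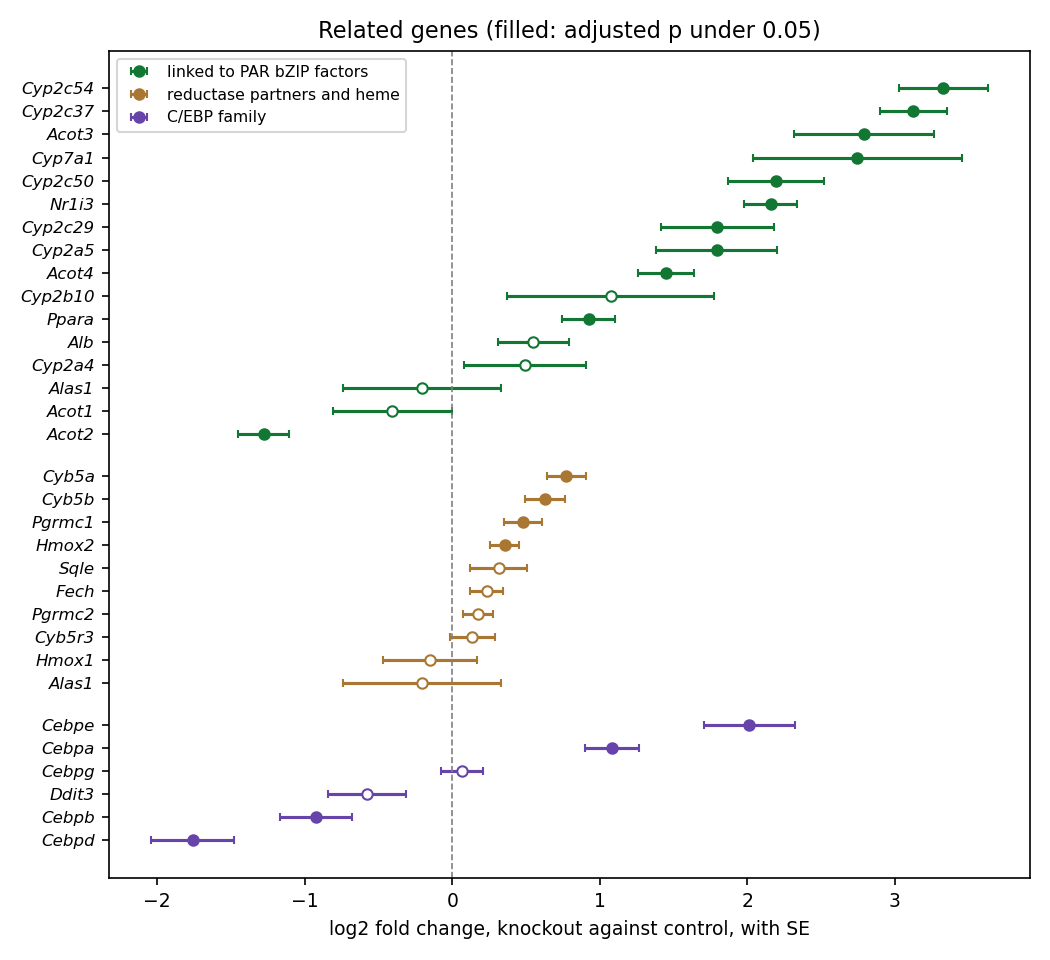
Log2 fold change, knockout against control, with SE for liver genes linked to the PAR bZIP factors (green), partners of the P450 reductase and heme genes (brown) and the C/EBP family (purple); filled points passed. Cyp2c54 (3.33) is farthest to the right, and Cebpd (−1.76) and Acot2 (−1.28) are farthest to the left.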

How the data were processed

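Raw read counts per Ensembl gene were deposited by the authors, with 1 column per mouse; per the labels' protocols, mRNA was selected with poly-T beads and cDNA was primed with random hexamers. The submitters' processing notes name, with no role for each, featureCounts 1.5.0-p3, StringTie 1.3.3b, HISAT2 2.0.5 and the build GRCm38.p6. The strand setting and the treatment of multi-mapping reads are not given in the sources used here. Symbols, coordinates and exon lengths came from GENCODE M21 (54495 of 54532 identifiers matched). Counts were filtered with filterByExpr, scaled by TMM (trimmed mean of M values) and fitted in edgeR 4.0.16 under R 4.3.3 (glmQLFit, glmQLFTest), 3 against 3 livers without covariates. The SE is the log2 fold change divided by the square root of F. Alternatives used DESeq2 1.42.0, limma-voom (limma 3.58.1), other scalings and filters, a mouse-number block and each liver left out. The steps were tested on simulated counts in 3 draws, each with far fewer changed genes than were called in the data. In these draws the steps recovered 8.87% of 1.5-fold, 61.5% of 2-fold and 95.2% of 4-fold changes, and 6.24% of calls were false. These rates need not hold for the data, and a gene that did not pass may still differ between the groups. Members and gene lists were chosen with earlier results of these data known; no list was tested as a set. Some genes stand in more than 1 list, and 1 clock gene is not reported here. The genes named are, per list, the 4 lowest p-values among those called (where none was called, the 2 lowest), and from the P450 families 2 in each direction with a mean of at least 1 CPM. Figures were drawn with matplotlib 3.10.9.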

Additional observations from a re-analysis of the deposited data

How the results depend on the processing

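Hlf and Tef passed under all 15 alternatives (log2 1.3 to 2 and 0.71 to 1.19), and Nfil3 and Por under none (adjusted p of at least 0.0526 and 0.23). With single livers left out, the log2 value ran from 0.94 to 1.87 for Dbp, from −0.85 to −0.14 for Nfil3 and from −0.11 to 0.44 for Por. Genes called ran from 1086 to 1576 higher and from 1183 to 1837 lower, E-box genes higher from 2 to 4, ROR-element genes lower from 0 to 1, clock modifiers lower from 0 to 1, PAR-linked genes lower from 1 to 2, reductase partners higher from 1 to 4, C/EBP genes lower from 1 to 2 and P450 genes lower from 2 to 4.

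The cause of these and the following changes was not tested. With library totals Por stood at −0.042, 904 genes were higher and 3698 lower (19.6% of calls higher, against 47.5%), and the counts were 2 E-box genes, 1 reductase partner, 4 modifiers lower and 1 xenobiotic sensor lower; the median of all genes moved from −0.01 to −0.264. Without a filter Dbp passed at 1.41, with 1 modifier higher and 1 lower, and DESeq2 and limma-voom each called 1 modifier higher. Without control liver 1 and knockout liver 2, an alternative chosen after seeing the data, Dbp passed at 1.05 and Por stood at −0.315. The counts were then 2 E-box genes, 1 ROR-element gene lower, 1 modifier lower, 2 PAR-linked genes lower, 2 reductase partners and 1 C/EBP gene lower. At an adjusted p under 0.01, 724 genes were higher and 791 lower, with 1 E-box gene, 0 modifiers, 1 reductase partner, 1 C/EBP gene lower and 2 P450 genes lower. With the longest transcript as the length, Tef stood at 24.3 and 48.7, Dbp in knockouts at 44.9 and Por at 321 and 377 CPM per kb, and the mean ratio of Nfil3 to the activators in knockouts at 0.0972; with library totals Tef in knockouts stood at 24.9.

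Of the other named genes, the sign turned for Nr1d1 without the same 2 livers (−0.134), for Npas2 without control liver 1 (0.042), and for Alas1 without control liver 1 (0.162), knockout liver 2 (0.211) or both (0.563). Npas2, a clock gene of the ROR-element list, stood at −0.701 (adjusted p = 0.517) with all 6 livers. Its counts were low, from 7 to 70 per liver. With single livers left out Npas2 ran from −1.912 to 0.042 and Alas1 from −0.533 to 0.211. Same-numbered livers did not deviate together (r of −0.0271, 0.0441 and −0.0185), so mouse numbers name samples only. With the mouse number as a block 1438 genes were higher and 1648 lower, Dbp stood at 1.7 (adjusted p = 0.0539), and 1 modifier fell and 2 reductase partners rose; no call of a member changed. The lowest count of a member in any liver was 183, for Dbp in control liver 1.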
